A study of Mus musculus with 12 samples.

Results

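Nuclear receptors, the transcription factors that bind small lipophilic ligands or share the fold of those that do, were followed in the liver together with the coregulators they recruit. The set is a list of 38 gene symbols, 32 receptors and 6 coregulators, whose rule is the symbol alone, and all 38 were found among the 23849 symbols of the table. The mice were male, of a C57BL/6J background and 8 weeks old by the study's design text, and all were fed a high-fat diet (HFD). By the study's account the HFD lasted 6 weeks. For the last 2 of these the mice were given either vehicle or Libramed, by gavage once a day shortly before lights-off. Vehicle was drinking water. Libramed is the label's name for Policaptil Gel Retard, a blend of fibres that swells into a gel in the gut. Livers were taken at Zeitgeber time (ZT) 0, when the lights go on and the active phase ends, or at ZT12, when the lights go off. Because gavage was given at a fixed time of day, time of day and time since gavage cannot be told apart between ZT0 and ZT12. This gave 4 groups of 3 mice: vehicle at ZT0, vehicle at ZT12, Libramed at ZT0 and Libramed at ZT12. No mice on normal chow were part of the RNA series, so every value belongs to livers of mice fed HFD.

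Most receptors of this family act as dimers on short DNA repeats, and in the liver a large share of them pair with a retinoid X receptor (RXR). Fatty acids, oxysterols, bile acids, drugs, retinoids and hormones set the activity of different members, and bound ligand exchanges corepressors for coactivators. Together the hepatic members govern fat oxidation, bile acid synthesis, sterol export, gluconeogenesis and detoxification.

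The values are FPKM, fragments scaled to transcript length and to the size of each library, so they can be compared between genes as well as between mice. Absolute depth is unknown, but the steps between low values put the deepest library at 1.80 times the shallowest. The shallowest was Libramed ZT12 replicate 2, with a relative depth of 0.698, while the next lowest, Libramed ZT12 replicate 1, had 0.974. Library sums ranged from 634683 to 697287 FPKM at ZT0 and from 692646 to 759355 FPKM at ZT12, so they were mostly higher at ZT12. Hepatocyte markers had a summed level of 34150 to 48600 FPKM in every library, apart from Alb (albumin), which is listed at 0 in all 12 and gives no check. The library of Libramed ZT12 replicate 3 held muscle transcripts, with 50.4 FPKM over 7 muscle genes against at most 1.60 in any other library, and the counts of members called between the times are also given without it.

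The levels of the 38 genes spanned a very wide range. Nr1i3 (the constitutive androstane receptor, CAR, a xenobiotic sensor) was highest with a mean of 191 FPKM over the 12 mice, followed by Hnf4a, the receptor that holds hepatocyte identity, with 123 FPKM. Another 8 genes lay between 20 and 100 FPKM, in descending order Rxra, Nr1h3, Nr1h4, Nr2f6, Ppara, Nr1i2, Nr1h2 and Esrra. Neighbours in this order were often closer than the mice were to each other: Rxra, Nr1h3, Nr1h4 and Nr2f6 had means between 74.4 and 83.0 FPKM, while single mice ranged from 51.7 to 94.8 FPKM for Nr1h4 and from 66.5 to 94.3 FPKM for Rxra. A further 5 genes lay between 5 and 20 FPKM and 11 between 1 and 5 FPKM. The remaining 12 had a mean under 1 FPKM and were left out of the tests: Hnf4g, Nr2f1, Nr2c2, Nr3c2, Rarb, Vdr, Esrrg, Nr4a1, Nr4a2, Ppargc1a, Ppargc1b and Nrip1. Vdr, the vitamin D receptor, was listed at 0 in 9 of the 12 libraries and Hnf4g had a mean of 0.0391 FPKM. The 26 others were tested within all 9806 symbols that reached a mean of 1 FPKM.

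**Figure D1:**
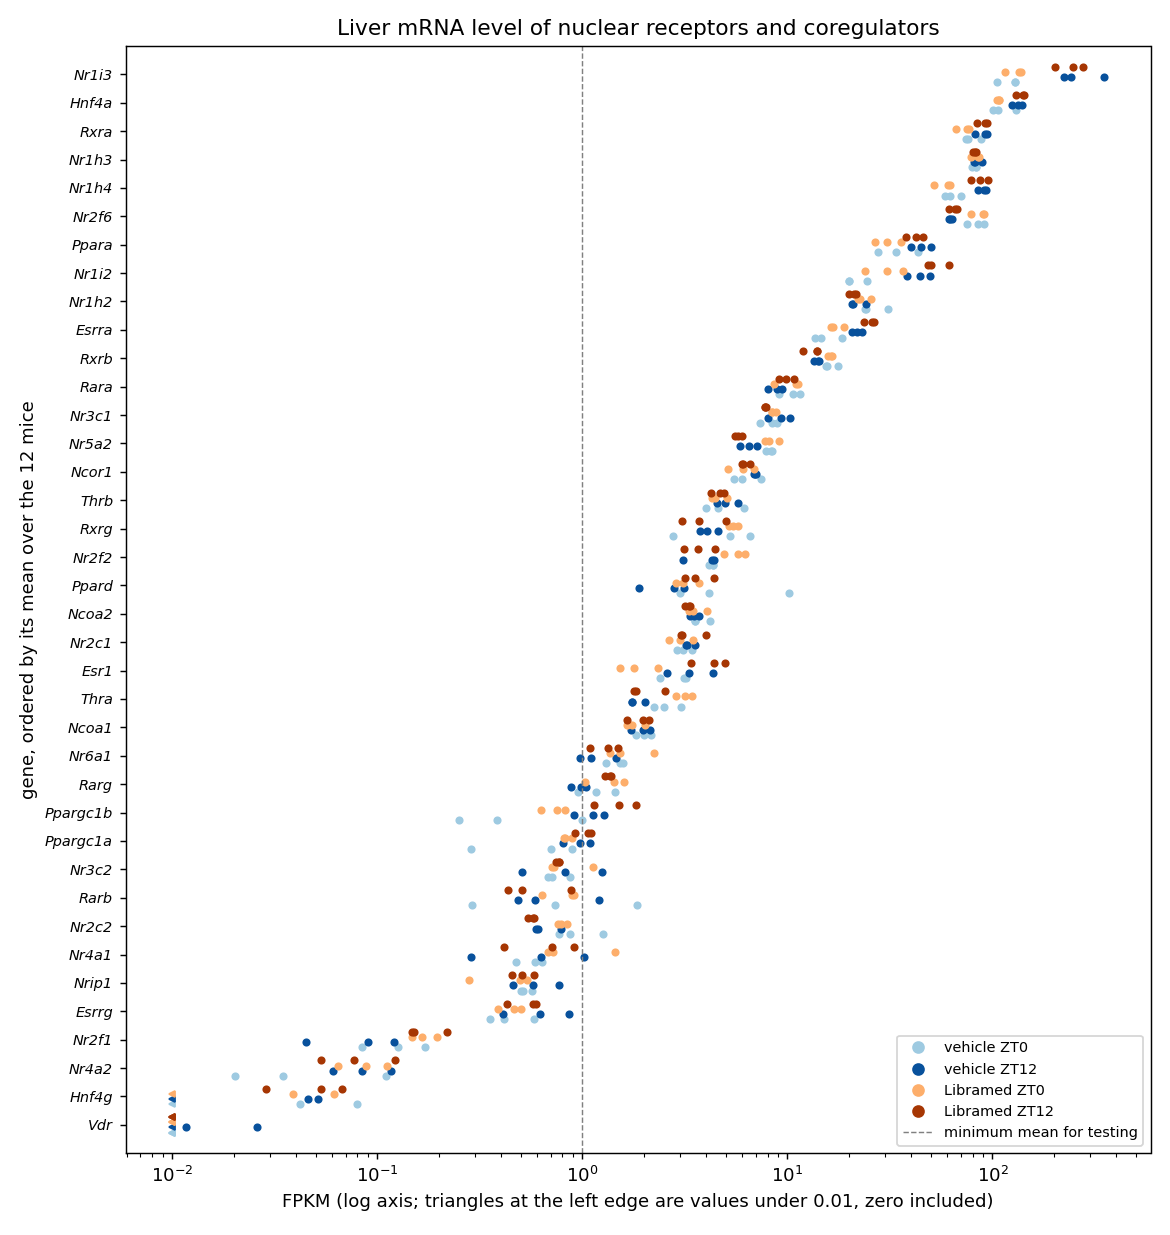
FPKM of each of the 38 genes (log axis) in each of the 12 livers, coloured by group, with genes ordered by their mean and the dashed line at the minimum mean of 1 FPKM. Nr1i3 and Hnf4a are the 2 genes with a mean above 100 FPKM, Vdr is listed at 0 in 9 libraries, and the ZT12 points of Nr1i3 and Nr1i2 lie to the right of their ZT0 points.

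Between ZT0 and ZT12, 4 members changed in vehicle mice and again in Libramed mice: Nr1i3, Nr1i2 (the pregnane X receptor, PXR) and Nr1h4 (the bile acid receptor, FXR) rose and Nr2f6 (the orphan receptor EAR2) fell, while 5.45% of all genes were called in both in the same direction. These shared calls were not firm. Under the alternatives 0 to 6 members were called in both, with 0 when no minimum level was set, 1 with Cyber-T (Nr1i3), 1 with the replicate block (Nr1i2) and 1 to 4 when single libraries were left out. The upstream sequences of these 4 are shown because these genes were called in both treatments in the fits described here. They are the 250 bases before the RefSeq start of each gene on build GRCm38.p6, 5′ to 3′ on the gene's strand, for Nr1i3 at chr1:171213720-171213969 (plus strand), Nr1i2 at chr16:38294825-38295074 (minus), Nr1h4 at chr10:89506659-89506908 (minus, inside the longer gene model of GENCODE) and Nr2f6 at chr8:71381953-71382202 (minus). Capitals mark an E-box (CACGTG, the element of CLOCK and BMAL1) in Nr1i3 and a nuclear receptor half-site (AGGTCA, here read on the other strand as TGACCT) in Nr1h4.
Nr1i3: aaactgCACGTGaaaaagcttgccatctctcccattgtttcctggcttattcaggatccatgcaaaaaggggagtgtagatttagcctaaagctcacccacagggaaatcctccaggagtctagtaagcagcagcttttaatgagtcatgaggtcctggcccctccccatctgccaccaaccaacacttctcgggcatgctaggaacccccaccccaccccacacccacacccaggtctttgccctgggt
Nr1i2: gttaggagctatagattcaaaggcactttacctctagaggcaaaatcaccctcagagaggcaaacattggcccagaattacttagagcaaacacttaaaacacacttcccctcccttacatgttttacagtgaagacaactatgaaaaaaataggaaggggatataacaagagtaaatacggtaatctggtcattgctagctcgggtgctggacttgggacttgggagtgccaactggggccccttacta
Nr1h4: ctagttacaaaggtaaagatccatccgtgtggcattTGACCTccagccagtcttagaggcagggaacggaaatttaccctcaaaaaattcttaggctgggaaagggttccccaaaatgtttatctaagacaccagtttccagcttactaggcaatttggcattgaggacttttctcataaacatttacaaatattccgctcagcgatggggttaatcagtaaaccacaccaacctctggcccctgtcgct
Nr2f6: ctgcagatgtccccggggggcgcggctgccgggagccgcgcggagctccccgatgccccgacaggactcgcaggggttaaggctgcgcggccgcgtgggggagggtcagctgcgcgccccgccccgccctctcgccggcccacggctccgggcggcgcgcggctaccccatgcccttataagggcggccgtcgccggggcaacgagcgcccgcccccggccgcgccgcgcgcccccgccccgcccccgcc

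The E-box of Nr1i3 lies 244 to 239 bases before the start and the half-site of Nr1h4 lies 214 to 209 bases before it. Both strands were searched for these letters and for DR1 (the half-site repeated in the same direction with 1 base between, so each match also holds the half-site), the D-box TTATGTAA and the HNF4 letters CAAAGTCCA, and none of the 5 was found in the windows of Nr1i2 and Nr2f6. Among 32851 RefSeq promoters of the same length, 6.02% hold the E-box, 14% the half-site, 0.0335% DR1, 0.819% the D-box and 0.384% the HNF4 letters. Of the 38 members, 33 were searched, with 52 promoters in all. Members on chromosome 18 (Nr3c1 and Ppargc1b) were left out of this search, a filter not applied to the 32851 promoters. The E-box is in 3 of the 52 or 5.77% (Nr1i3, Thrb, Rara) and the half-site in 7 or 13.5% (Rxra, Rxrg, Nr1h4, Nr5a2, Nr6a1, Thrb, Rarg), both near the shares of all promoters. The windows differ in composition, with 82.4% G and C and 42 CpG pairs in Nr2f6 against 44% and 2 in Nr1i2. These matches describe letters in a window and were not tied to any change.

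With both treatments in 1 limma fit (12 mice, treatment as a term), 13 of the 26 tested members differed between ZT12 and ZT0 at an adjusted p under 0.05, while 29.7% of all 9806 genes did. The 8 that rose are Nr1i3, Nr1i2, Nr1h4, Esr1, Esrra, Ppara, Hnf4a and Rxra, against a background of 15.9% of all genes. Nr2f6, Thra, Nr5a2, Nr2f2 and Rxrb are the 5 that fell, against 13.8%. In 7 of the 26 tested members, all of them called, the 6 ZT0 mice and the 6 ZT12 mice did not overlap at all (Nr1i3, Nr1i2, Nr1h4, Esrra, Nr5a2, Nr2f6, Rxrb), a separation seen in 13.3% of all genes. For 8 of the 13 the exact permutation test of time labels within treatments gave 0.005, the smallest p its 400 arrangements allow, and the highest was 0.0400, for Nr2f2. The other 13 members had log2 fold changes between -0.32 (Ppard) and 0.09 (Ncor1). Leaving out the library with muscle transcripts, Libramed ZT12 replicate 3, left 12 called members.

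Within each treatment the fits hold 6 mice and call fewer genes. In vehicle mice 4 members passed, Nr1i3, Nr1i2, Nr1h4 and Nr2f6, beside 10.4% of all genes, and 8 had groups that did not overlap, beside 33.2%. In Libramed mice 8 passed, beside 12.4% of all genes, and 16 had groups that did not overlap, beside 34.9%. The 4 further members called in Libramed mice were Hnf4a, Nr5a2, Esr1 and Esrra. No member passed the test of the difference between the treatments, so the larger number is not shown to be a larger response. With an unadjusted p under 0.05 the counts were 8 in vehicle mice, beside 27.4% of all genes, 14 in Libramed mice, beside 29.2%, and 15 over both, beside 41%. Both adjusted counts rest on few mice. The vehicle count was 2 without vehicle ZT0 replicate 3, vehicle ZT12 replicate 1 or vehicle ZT12 replicate 3 and 1 without vehicle ZT12 replicate 2, and the Libramed count was 4 without Libramed ZT0 replicate 1 or Libramed ZT12 replicate 3, 5 without Libramed ZT0 replicate 3 and 2 without Libramed ZT12 replicate 2.

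**Figure D2:**
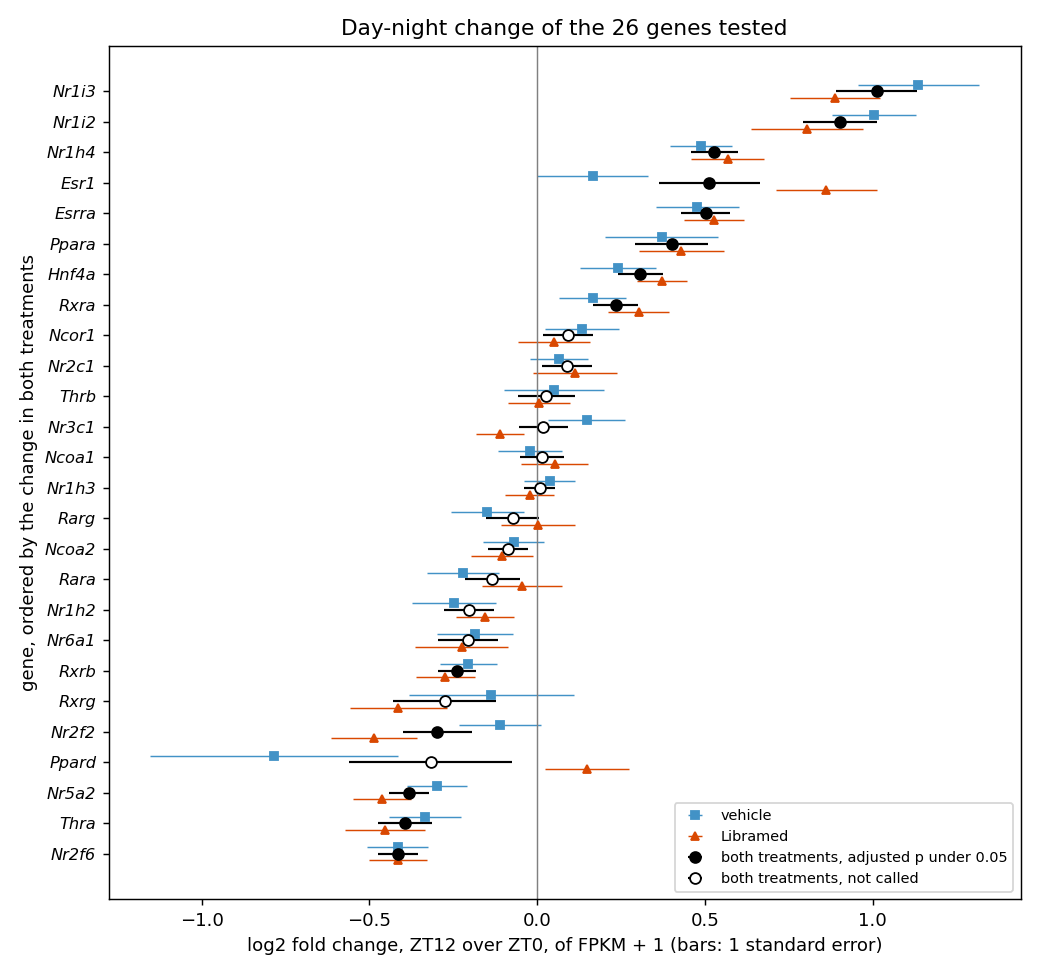
Log2 fold change of FPKM + 1 at ZT12 over ZT0 for the 26 tested genes, with bars of 1 standard error, for vehicle mice (squares), Libramed mice (triangles) and both treatments together (circles, filled where the adjusted p was under 0.05). Among the circles, Nr1i3 and Nr1i2 lie farthest to the right at 1.01 and 0.90, Nr2f6 lies farthest to the left at -0.41, and Esr1 and Ppard show the widest gap between the treatments.

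The xenobiotic sensors changed most. Nr1i3 (chr1:171213970-171220701, plus strand) encodes CAR, which induces cytochromes P450 and conjugating enzymes in response to drugs and bilirubin. Its levels were 129, 129 and 106 FPKM in the vehicle mice at ZT0 and 224, 242 and 349.6 FPKM at ZT12. In Libramed mice they were 115, 135 and 137 at ZT0 and 201, 246 and 275 FPKM at ZT12. The lowest ZT12 mouse was well above the highest ZT0 mouse in both treatments, and vehicle ZT12 replicate 3 was the highest of all. Over both treatments the level rose from 125 ± 12.3 to 256 ± 51.9 FPKM (SD, n = 6), which is 2.05-fold, with a log2 fold change of 1.01 ± 0.12 (SE, limma adjusted p = 1.01e-04). Of the 4414 exonic bases of Nr1i3 in GENCODE, 3304 are shared with the opposite-strand gene Tomm40l, a mitochondrial import channel, whose level rose from 28.6 ± 4.70 to 56.8 ± 16.0 FPKM with a log2 fold change of 0.94. The ratio of Nr1i3 to Tomm40l was 3.72 to 5.83 at ZT0 and 3.66 to 5.69 at ZT12. The kit named in the labels does not mark strand while the methods describe stranded libraries, so how reads in the shared exons were divided is not settled and their part in the change was not tested.

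Nr1i2 (chr16:38248323-38294824, minus strand) encodes PXR, the receptor for many drugs and for toxic bile acids. Vehicle mice had 19.95, 24.4 and 19.98 at ZT0 and 38.3, 44.3 and 49.4 FPKM at ZT12. Libramed mice had 30.7, 23.9 and 36.6 at ZT0 and 48.3, 50.1 and 61.6 FPKM at ZT12. All 6 ZT12 mice exceeded all 6 ZT0 mice, although the highest Libramed ZT0 mouse came close to the lowest vehicle ZT12 mouse. The log2 fold change over both treatments was 0.90 ± 0.11 (limma adjusted p = 1.16e-04), or 1.88-fold in FPKM. No exon of Nr1i2 is shared with another annotated gene.

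Among the sterol and bile acid sensors, Nr1h4 rose and the LXR genes did not. Nr1h4 (chr10:89454234-89533585, minus strand) encodes FXR, which senses bile acids and restrains their synthesis. It measured 62.1, 70.1 and 58.8 FPKM in vehicle mice at ZT0 against 92.7, 84.6 and 91.4 FPKM at ZT12. The Libramed values were 51.7, 62.3 and 60.8 at ZT0 and 94.8, 86.8 and 78.7 FPKM at ZT12. No ZT0 mouse reached any ZT12 mouse. The log2 fold change was 0.53 ± 0.07 (limma adjusted p = 1.89e-04). Nr1h3 (LXRα, the main oxysterol receptor of hepatocytes) was the steadiest abundant member, between 78.8 and 89.0 FPKM over all 12 mice, with a log2 fold change of 0.01 ± 0.05. Nr1h2 (LXRβ, expressed in most tissues) had 31.0, 23.8 and 24.2 FPKM in vehicle ZT0 mice and 20.8, 20.8 and 24.2 FPKM in vehicle ZT12 mice, with 22.2, 25.7 and 22.7 FPKM and 21.7, 21.2 and 20.02 FPKM in Libramed mice. Its groups overlapped in vehicle mice and not in Libramed mice, and its limma adjusted p of 0.0596 missed the threshold (0.0493 without vehicle ZT0 replicate 2, within a range of 0.0361 to 0.122 over the alternatives).

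Of the fatty acid sensors, Ppara rose and Ppard did not pass the test. Ppara (chr15:85734983-85802819, plus strand), whose product PPARα switches on fatty acid oxidation and ketogenesis, had 27.7, 43.2 and 34.0 FPKM in vehicle ZT0 mice and 40.0, 44.7 and 50.2 FPKM in vehicle ZT12 mice. In Libramed mice it had 30.5, 36.0 and 26.6 at ZT0 and 45.7, 37.8 and 42.4 FPKM at ZT12. Vehicle ZT0 replicate 2 reached the ZT12 range, while the Libramed groups did not overlap. The rise over both treatments was 0.40 ± 0.11 on the log2 scale (limma adjusted p = 0.0148). Ppard, whose product PPARδ serves fat use in many tissues, had 2.98, 4.17 and 10.2 FPKM in vehicle ZT0 mice, where replicate 3 stood far above every other mouse. The other groups held 1.88, 3.13 and 2.79 FPKM (vehicle ZT12), 2.85, 3.72 and 3.11 FPKM (Libramed ZT0) and 4.37, 3.18 and 3.54 FPKM (Libramed ZT12). The groups overlapped in both treatments, and its day-night difference did not pass the test (limma adjusted p = 0.360).

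The RXR genes, which encode the shared dimer partners, did not move together, since Rxra rose and Rxrb fell. Rxra (chr2:27676440-27762957, plus strand), the main hepatic form, had 74.6, 88.2 and 76.2 FPKM in vehicle ZT0 mice and 82.2, 91.8 and 94.3 FPKM in vehicle ZT12 mice. Libramed mice had 75.3, 76.7 and 66.5 at ZT0 and 83.7, 93.8 and 92.4 FPKM at ZT12. The vehicle groups overlapped and the Libramed groups did not, and the rise was small, 0.23 ± 0.07 (limma adjusted p = 0.0195). With quantile normalization the adjusted p was 0.123, and over all alternatives it ranged from 0.00658 to 0.123. Rxrb (chr17:34031812-34038399, plus strand), expressed broadly, fell from 15.6, 17.7 and 15.4 FPKM to 13.4, 14.2 and 14.2 FPKM in vehicle mice. In Libramed mice it went from 16.5, 15.8 and 16.4 FPKM to 11.9, 14.0 and 13.9 FPKM. Every ZT12 mouse was below every ZT0 mouse, at a log2 fold change of -0.24 ± 0.06 (limma adjusted p = 0.00690). Rxrg, a form better known from muscle and brain, had 6.55, 2.76 and 5.26 FPKM and 4.04, 3.75 and 4.56 FPKM in vehicle mice at ZT0 and ZT12 and 5.74, 5.43 and 5.22 FPKM and 4.996, 3.05 and 3.69 FPKM in Libramed mice. Its vehicle ZT0 mice enclosed the vehicle ZT12 mice, its Libramed groups did not overlap, and it was not called (limma adjusted p = 0.201). The ratio of Rxra to Rxrb, which restates the changes of both genes, was 4.07 to 4.98 at ZT0 and 6.13 to 7.02 at ZT12.

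The receptors of hepatocyte identity also diverged. Hnf4a (chr2:163506808-163572910, plus strand) keeps hepatocyte genes active and binds DNA as a homodimer. Vehicle mice had 100.7, 130.3 and 107 at ZT0 and 125, 134 and 139 FPKM at ZT12. Libramed mice had 107, 105 and 107 at ZT0 and 131, 143 and 141 FPKM at ZT12. Vehicle ZT0 replicate 2 lay inside the ZT12 range, and the Libramed groups were clearly apart. The log2 fold change was 0.31 ± 0.07 (limma adjusted p = 0.00491). Nr5a2 (chr1:136842571-136960448, minus strand), LRH-1, which drives bile acid synthesis genes, had 7.84, 8.43 and 8.35 FPKM in vehicle ZT0 mice and 5.89, 6.51 and 7.08 FPKM in vehicle ZT12 mice. The Libramed levels were 7.77, 9.08 and 8.14 at ZT0 and 6.00, 5.74 and 5.54 FPKM at ZT12. It fell without overlap in both treatments, with a log2 fold change of -0.38 ± 0.06 (limma adjusted p = 6.42e-04). The ratio of Hnf4a to Nr5a2, which restates the changes of both genes, was 11.6 to 15.5 at ZT0 and 19.6 to 25.5 at ZT12. Hnf4g, a close relative of Hnf4a found mostly in gut and kidney, was under 0.1 FPKM in every mouse.

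Among the COUP-TF and testicular orphan receptors, which mostly repress and compete for the same repeats as RXR dimers, Nr2f6 and Nr2f2 fell. Nr2f6 (chr8:71374123-71381960, minus strand) was among the most abundant members, with 91.1, 75.5 and 84.9 FPKM in vehicle ZT0 mice and 62.4, 61.6 and 63.3 FPKM in vehicle ZT12 mice. In Libramed mice the values were 90.2, 90.6 and 78.8 FPKM and 65.5, 66.8 and 61.5 FPKM. All ZT12 mice were below all ZT0 mice, and the log2 fold change was -0.41 ± 0.06 (limma adjusted p = 2.98e-04). Nr2f6 shares 1622 of 2983 exonic bases with the opposite-strand gene Ocel1, which had 4.84 ± 0.705 at ZT0 and 5.44 ± 0.612 FPKM at ZT12 and was not called (limma adjusted p = 0.241). The ratio of Hnf4a to Nr2f6, which restates the changes of both genes, was 1.11 to 1.73 at ZT0 and 1.99 to 2.30 at ZT12.

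Nr2f2 (chr7:70351944-70366735, minus strand), COUP-TFII, known from venous endothelium and mesenchyme, had 4.35, 4.33 and 4.16 FPKM in vehicle ZT0 mice and 3.09, 4.38 and 4.31 FPKM in vehicle ZT12 mice. Libramed mice had 5.77, 6.20 and 4.91 at ZT0 and 3.14, 4.42 and 3.68 FPKM at ZT12. The vehicle groups overlapped and the Libramed groups did not. The log2 fold change of -0.30 ± 0.10 just passed (limma adjusted p = 0.0451), and the call was lost when no minimum level was set (adjusted p = 0.0802) and without any 1 of 9 libraries, leaving it in 8 of 18 alternatives. The libraries were vehicle ZT0 replicates 1 and 2, vehicle ZT12 replicate 1 and all 6 Libramed mice, with adjusted p from 0.0522 to 0.0990. In vehicle mice alone Nr2f2 changed by -0.11 ± 0.12 and in Libramed mice by -0.49 ± 0.13, called in neither (limma adjusted p = 0.614 and 0.0511). Endothelial cell markers had a median log2 fold change of -0.46 in vehicle mice and -0.45 in Libramed mice. Of the 10 listed, 8 were tested, 6 fell and none rose between ZT0 and ZT12, and their summed level was 35.8 to 46.7 FPKM in vehicle ZT0 mice, 19.6 to 32.5 FPKM in vehicle ZT12 mice, 45.7 to 54.8 FPKM in Libramed ZT0 mice and 30.0 to 32.8 FPKM in Libramed ZT12 mice. Stellate cell markers, with 6 of 9 tested falling, summed to 79.3 to 125 FPKM, 76.1 to 114 FPKM, 119.7 to 139 FPKM and 64.5 to 97.2 FPKM in the same order. No marker of either list was at 0 in all libraries, and their part in the fall of Nr2f2, and of the other members that fell, was not tested. In bulk liver, fewer cells of a type and less RNA per cell cannot be told apart.

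Nr6a1 (germ cell nuclear factor) was low at 1.53, 1.30 and 1.58 FPKM in vehicle ZT0 mice, 0.977, 1.10 and 1.45 FPKM in vehicle ZT12 mice, 2.23, 1.53 and 1.37 FPKM in Libramed ZT0 mice and 1.34, 1.09 and 1.49 FPKM in Libramed ZT12 mice, and its groups overlapped in both treatments (limma adjusted p = 0.103). Nr2c1 (TR2) had a mean of 3.22 FPKM and a log2 fold change of 0.09 ± 0.07. Nr2c2 (TR4) and Nr2f1 (COUP-TFI) were under 1 FPKM on average. Without the minimum, Nr2c2 fell by 0.22 on the log2 scale (limma adjusted p = 0.0249), but 4590 of its 14935 exonic bases are shared with the opposite-strand gene Mrps25.

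Of the 2 steroid receptors tested, Esr1 was called and Nr3c1 was not. Esr1 (chr10:4611593-5005614, plus strand), estrogen receptor α, had 3.19, 2.39 and 3.12 FPKM in vehicle ZT0 mice and 2.58, 4.35 and 3.31 FPKM in vehicle ZT12 mice, which overlap. In Libramed mice it had 1.52, 2.34 and 1.80 at ZT0 and 4.96, 4.38 and 3.39 FPKM at ZT12, which do not. The log2 fold change was 0.17 ± 0.17 in vehicle mice, 0.86 ± 0.15 in Libramed mice and 0.51 ± 0.15 over both (limma adjusted p = 0.0229). The last call was lost, at adjusted p of 0.0508 to 0.0527, without Libramed ZT0 replicate 1, Libramed ZT0 replicate 3, vehicle ZT12 replicate 2 or Libramed ZT12 replicate 2. Nr3c1, the glucocorticoid receptor, read 7.34, 8.86 and 8.45 FPKM in vehicle ZT0 mice, 10.3, 9.30 and 8.03 FPKM in vehicle ZT12 mice, 8.78, 8.43 and 8.39 FPKM in Libramed ZT0 mice and 7.90, 7.81 and 7.78 FPKM in Libramed ZT12 mice. The vehicle groups overlapped and the Libramed groups did not, with a day-night log2 fold change of 0.02 ± 0.07. Nr3c2, the mineralocorticoid receptor, had a mean of 0.808 FPKM.

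Thyroid hormone receptors differed by subtype. Thra (chr11:98740638-98769006, plus strand), TRα, the minor form in liver, had 2.24, 2.51 and 3.02 FPKM in vehicle ZT0 mice and 1.74, 2.01 and 1.75 FPKM in vehicle ZT12 mice. Libramed mice had 2.87, 3.44 and 3.16 at ZT0 and 1.83, 2.54 and 1.79 FPKM at ZT12. The groups did not overlap within either treatment, though the highest Libramed ZT12 mouse exceeded 2 of the vehicle ZT0 mice. Its fall was -0.39 ± 0.08 on the log2 scale (limma adjusted p = 0.00319). Thra shares 263 of its 4614 exonic bases with Nr1d1 (Rev-erbα, a clock repressor) on the other strand, and Nr1d1 went from 42.4 ± 13.9 FPKM at ZT0 to 7.44 ± 2.81 FPKM at ZT12. The part of these shared exons in the fall of Thra was not tested. Thrb (TRβ, the main hepatic form) had a mean of 4.80 FPKM and a log2 fold change of 0.03 ± 0.09, and the ratio of Thra to Thrb was 0.411 to 0.736 at ZT0 and 0.305 to 0.597 at ZT12.

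No retinoic acid receptor passed the day-night test. Rara, the most abundant, had 9.13, 10.6 and 11.6 FPKM in vehicle ZT0 mice, 8.04, 8.91 and 9.42 FPKM in vehicle ZT12 mice, 10.99, 11.3 and 8.60 FPKM in Libramed ZT0 mice and 10.8, 9.10 and 9.83 FPKM in Libramed ZT12 mice. The groups overlapped in both treatments, also for Rarg. This gene was near 1 FPKM, with 1.44, 0.956 and 1.17 FPKM and 0.877, 0.986 and 1.04 FPKM in vehicle mice at ZT0 and ZT12 and 1.03, 1.60 and 1.42 FPKM and 1.29, 1.36 and 1.38 FPKM in Libramed mice. Rarb had a mean of 0.784 FPKM and shares 1793 of 5265 exonic bases with Top2b.

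Esrra (chr19:6910977-6921813, minus strand), estrogen-related receptor α, which works with the PGC-1 coactivators on mitochondrial genes, rose. Vehicle mice had 14.6, 13.6 and 18.5 at ZT0 and 21.9, 23.2 and 20.7 FPKM at ZT12. Libramed mice had 18.9, 16.6 and 16.4 at ZT0 and 23.6, 25.9 and 26.4 FPKM at ZT12. No ZT0 mouse reached any ZT12 mouse, and the log2 fold change was 0.50 ± 0.07 (limma adjusted p = 4.04e-04). Its relative Esrrg had a mean of 0.517 FPKM, and the immediate early receptors Nr4a1 and Nr4a2, which respond to glucagon and other acute signals, had means of 0.710 and 0.0786 FPKM.

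**Figure D3:**
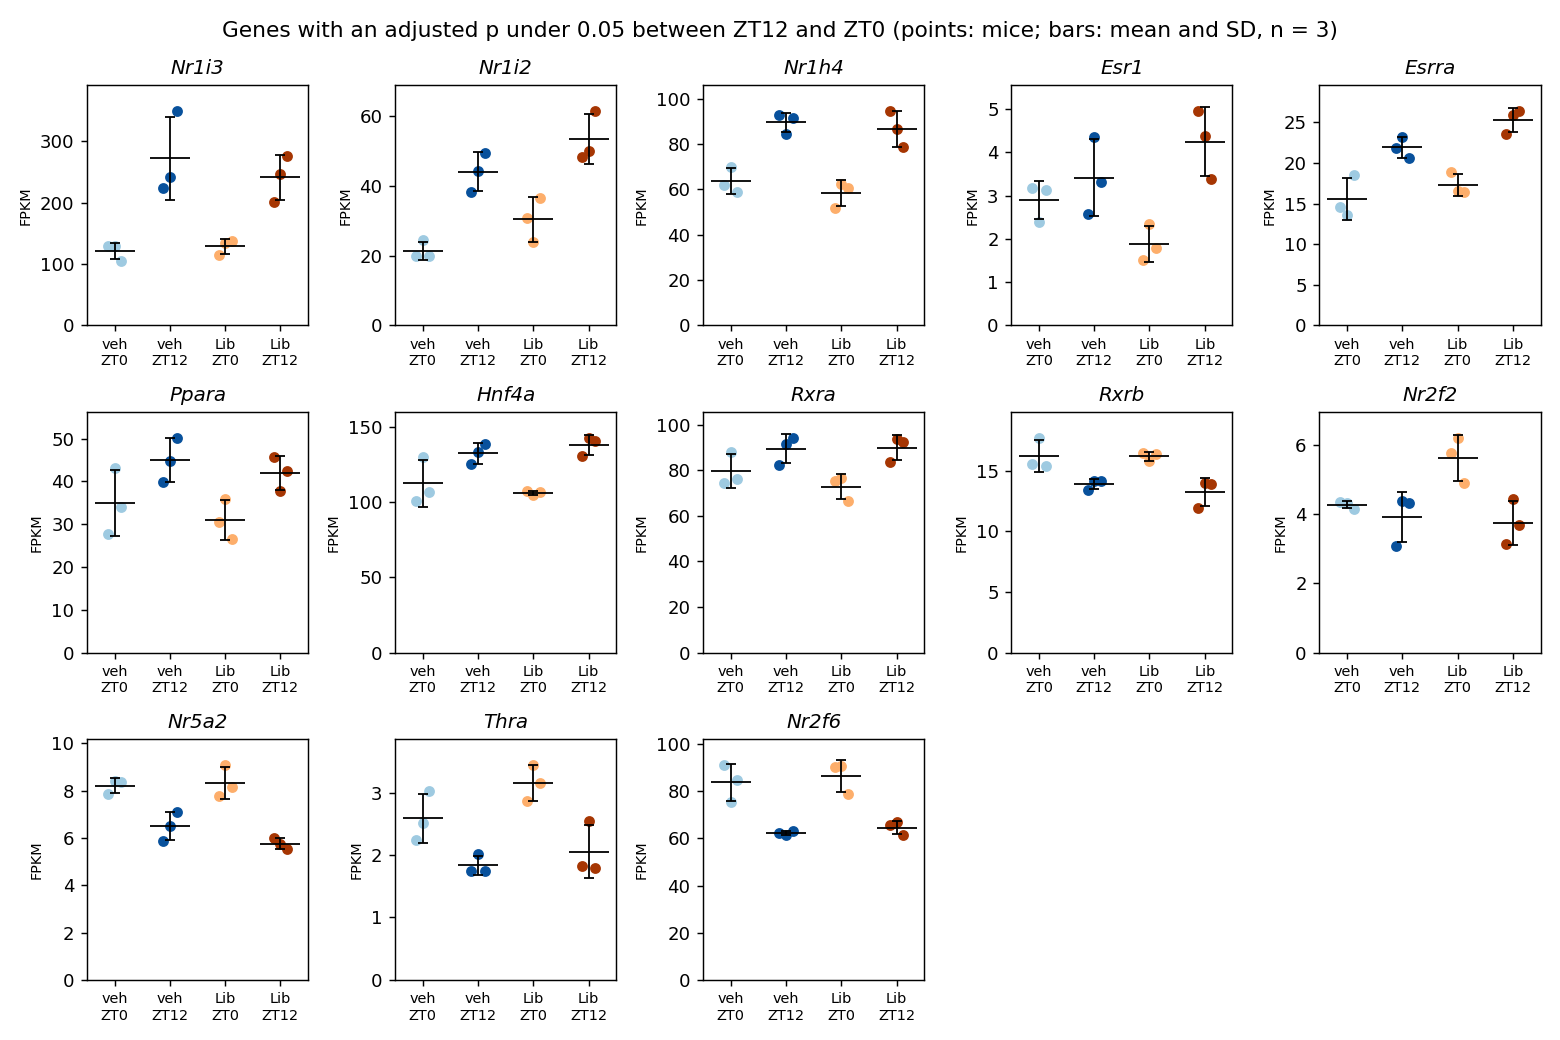
FPKM in each mouse (points) with the group mean and SD (bars, n = 3) for the 13 genes called between ZT12 and ZT0, in panels with axes from 0 and groups in the order vehicle ZT0, vehicle ZT12, Libramed ZT0 and Libramed ZT12. Nr1i3, Nr1i2, Nr1h4 and Esrra stand clear of their ZT0 values at ZT12 in both treatments, and Nr5a2, Nr2f6 and Rxrb stand clear below. In vehicle mice Esr1, Nr2f2, Ppara, Hnf4a and Rxra overlap between the times.

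Of the 6 coregulators, 3 were tested and none passed the day-night test. The coactivators Ncoa1 (SRC-1) and Ncoa2 (TIF2) had means of 1.91 and 3.54 FPKM with day-night log2 fold changes of 0.02 ± 0.07 and -0.09 ± 0.06. Ncor1, the corepressor that recruits HDAC3, had 6.38 FPKM and 0.09 ± 0.08. Ppargc1a and Ppargc1b, the PGC-1 coactivators of fasting and mitochondrial programmes, had means of 0.865 and 0.968 FPKM, and Nrip1 (RIP140), a corepressor of energy use, 0.520 FPKM. Ppargc1b had 0.252, 0.999 and 0.384 FPKM in vehicle ZT0 mice, 0.908, 1.27 and 1.121 FPKM in vehicle ZT12 mice, 0.630, 0.753 and 0.820 FPKM in Libramed ZT0 mice and 1.15, 1.83 and 1.51 FPKM in Libramed ZT12 mice. Only 1 vehicle ZT0 mouse overlapped the ZT12 mice. Without the minimum it rose by 0.49 on the log2 scale (limma adjusted p = 0.0116), and 14 of all 38 members were called, beside 17.4% of 17066 genes. Of 24 other coregulators tested, 6 rose and 1 fell, a share near the 29.7% of all genes, and among those with the smallest p were Ncoa5 (from 7.41 ± 0.940 to 4.91 ± 0.368 FPKM), Pprc1 (2.12 ± 0.569 to 3.67 ± 0.741 FPKM) and Carm1 (7.56 ± 0.325 to 9.15 ± 0.757 FPKM). The median log2 fold change of the 24 was 0.03, beside 0.01 for all genes.

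Because so many members share RXR as a partner, the mRNA of the 13 partners and of the 3 RXR genes was summed per mouse, a description chosen after the values were seen. The partners are Ppara, Ppard, Nr1h2, Nr1h3, Nr1h4, Nr1i2, Nr1i3, Thra, Thrb, Rara, Rarb, Rarg and Vdr. Their sum was 353.5 to 398.7 FPKM at ZT0 and 515.4 to 667.6 FPKM at ZT12, with no overlap. The RXR sum was 88.1 to 109 at ZT0 and 99.7 to 113 FPKM at ZT12, which overlap. Partner mRNA per RXR mRNA therefore went from 3.65 to 4.44 at ZT0 to 4.90 to 5.91 at ZT12. Nr1i3 made up 29.9 to 35.1% of the partner sum at ZT0 and 38.9 to 52.4% at ZT12, while Nr1h3 went from 20.3 to 23.7% to 12.2 to 16.3% while its own level stayed between 78.8 and 89.0 FPKM. Rxra made up 75.5 to 81.2% of the RXR sum at ZT0 and 82.5 to 84.6% at ZT12. These are mRNA ratios and give no amount of protein or dimer, and the Nr1i3 share includes exons shared with Tomm40l.

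**Figure D4:**
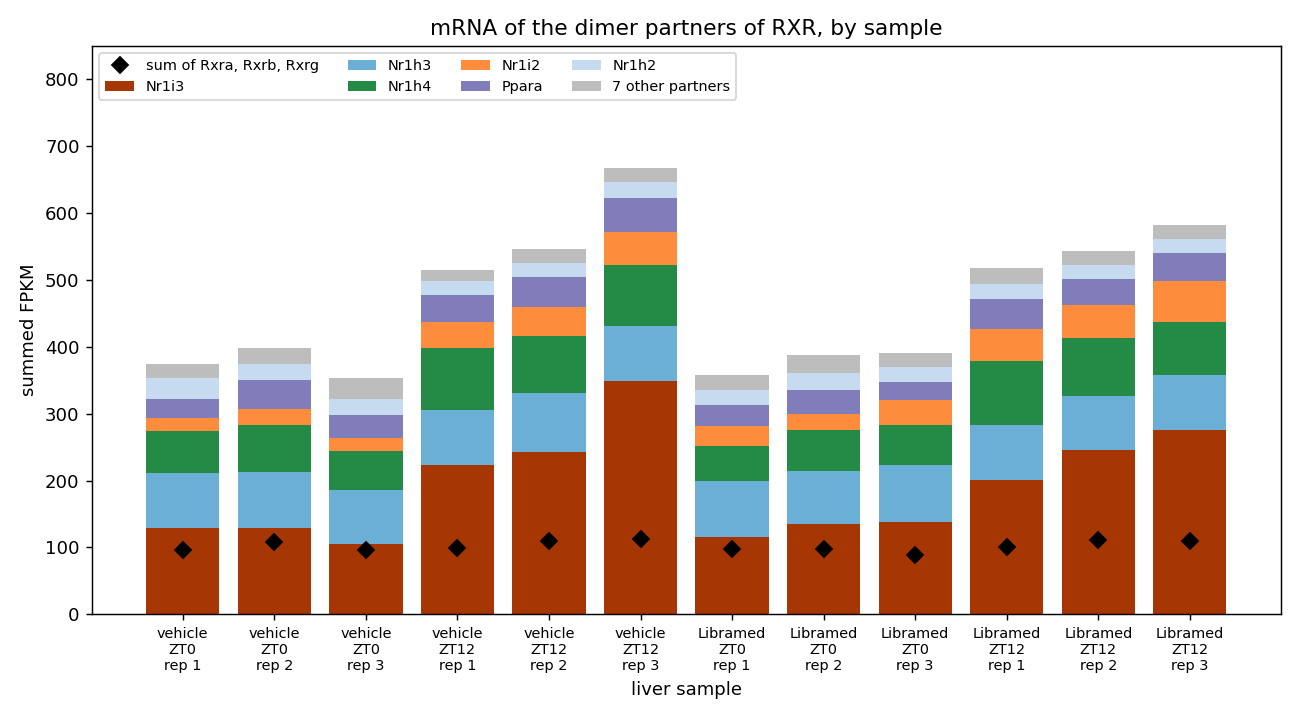
Summed FPKM of the 13 dimer partners of RXR in each of the 12 livers (stacked bars, 6 partners in colour and the 7 others in grey), with the sum of Rxra, Rxrb and Rxrg as diamonds. The bars stand at 353.5 to 398.7 FPKM at ZT0 and 515.4 to 667.6 FPKM at ZT12, mostly through the Nr1i3 segment, while the diamonds stay between 88.1 and 113 FPKM.

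Libramed against vehicle changed no member at an adjusted p under 0.05 in limma. At ZT0 the background was 0% of all genes and 3 of 26 members had an unadjusted p under 0.05, beside 9.23% of all genes. At ZT12 the background was again 0% and 3 members had an unadjusted p under 0.05, beside 6.74%. With both times in 1 fit of 12 mice the background was 0.0204% and 3 members had an unadjusted p under 0.05, beside 10.1%. The log2 fold changes of the 26 members over both times ranged from -0.13 ± 0.11 (Ppara) to 0.37 ± 0.11 (Nr1i2), 25 of them within 0.25, with a median SE of 0.08. Cyber-T, the test the study used, also called 0 members at an adjusted p under 0.05 at ZT0 and at ZT12. The study itself called genes at p under 0.05 and names no adjustment, so its threshold is not the one used here.

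The member nearest to a treatment difference was Nr1i2. Its Libramed mice had 30.7, 23.9 and 36.6 FPKM at ZT0 against 19.95, 24.4 and 19.98 FPKM with vehicle, and 48.3, 50.1 and 61.6 FPKM at ZT12 against 38.3, 44.3 and 49.4 FPKM. The groups overlapped at both times, at each by a single Libramed mouse. The exact permutation test of treatment within time gave p = 0.0250 and limma p = 0.00563, adjusted to 0.355. Rarg had a log2 fold change of 0.18 ± 0.08 (exact permutation p = 0.0600, limma adjusted p = 0.479) and Esrra 0.18 ± 0.07 (exact permutation p = 0.0400, limma adjusted p = 0.475). At ZT12 all 3 Libramed mice lay above all 3 vehicle mice for Esrra, Rarg and Ppard and below them for Nr3c1 and Ncor1, so that 5 of 26 members did not overlap, beside 13.1% of all genes. At ZT0 the groups did not overlap for Nr2f2 (higher with Libramed) and Esr1 (lower), 2 of 26, beside 15.1% of all genes. A 3 against 3 permutation cannot go below 0.1, so that test cannot pass 0.05 for these single-time separations. Nr1i3 had 0.09 ± 0.12 at ZT0 and -0.16 ± 0.19 at ZT12 for Libramed over vehicle.

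**Figure D5:**
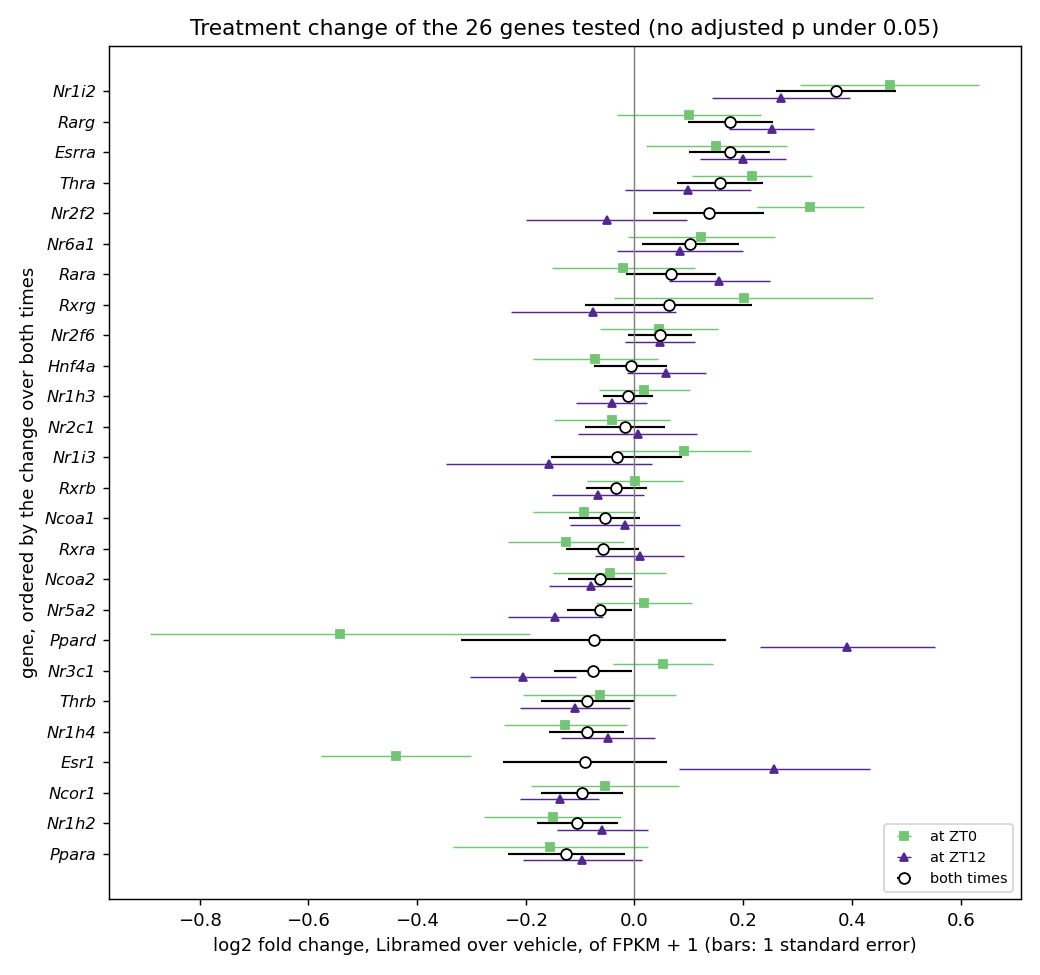
Log2 fold change of FPKM + 1 for Libramed over vehicle in the 26 tested genes, with bars of 1 standard error, at ZT0 (squares), at ZT12 (triangles) and over both times (open circles, none with an adjusted p under 0.05). Nr1i2 is highest over both times at 0.37 and the estimates of Ppard and Esr1 at ZT0 and ZT12 lie on opposite sides of 0.

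The interaction of time and treatment called 0 of 26 members, beside 0% of all genes, and 2 had an unadjusted p under 0.05, beside 6.63%. For Esr1 the estimated day-night change was higher with Libramed by 0.70 ± 0.24 on the log2 scale (limma adjusted p = 0.649). For Ppard it differed by 0.93 ± 0.42 (limma adjusted p = 0.751), and without vehicle ZT0 replicate 3, the mouse at 10.2 FPKM, by 0.50 (adjusted p = 0.806, within a range of 0.381 to 0.920 over the alternatives).

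The genes these receptors are known to regulate were counted from lists, with the same limma fit over 12 mice for ZT12 against ZT0. In that fit 15.9% of all genes rose and 13.8% fell. Of 13 CAR and PXR targets tested, 5 rose and none fell, with a median log2 fold change of 0.28 beside 0.01 for all genes. In vehicle mice alone 4 rose and none fell (median 0.32), and in Libramed mice 2 rose and 2 fell, Cyp2c29 and Gstm3 (median 0.16). The interaction estimates were negative for 11 of the 13, and none was called. The shares of all genes called were 10.4% in vehicle mice, 12.4% in Libramed mice and 0% for the interaction. Interaction estimates of all genes had a median of 0.005. Cyp2a5 (coumarin hydroxylase) rose from 157 ± 40.4 to 574 ± 137 FPKM, Por (the reductase that serves all microsomal cytochromes P450) from 67.2 ± 22.2 to 317 ± 58.9 FPKM and Abcc3 (a bile salt and conjugate exporter) from 24.3 ± 5.77 to 43.8 ± 9.19 FPKM. Of 9 FXR targets, 2 rose and 3 fell, with a median of -0.08. Abcb11, the bile salt export pump, fell from 109 ± 24.5 to 58.6 ± 5.85 FPKM, Slc27a5 (which conjugates bile acids to CoA) rose from 425 ± 26.5 to 559.8 ± 47.7 FPKM and Nr0b2 (SHP, the repressor of bile acid synthesis) fell from 95.2 ± 23.8 to 40.2 ± 15.9 FPKM, while Nr1h4 itself rose.

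Of 20 PPARα targets, 9 rose and 3 fell, with a median of 0.20. In vehicle mice 8 rose and 1 fell (median 0.44) and in Libramed mice 4 rose and 3 fell (median 0.08). The interaction estimates were negative for 18 of the 20, and those of Libramed against vehicle at ZT12 for 16 of the 20. None was called in either, beside 0% of all genes. Acaa1b (a peroxisomal thiolase) rose from 527 ± 122 to 987 ± 134 FPKM and Cpt1a (the entry step of mitochondrial fat oxidation) from 74.7 ± 9.74 to 119 ± 14.2 FPKM. LXR targets had 3 risen and 2 fallen of 10, with a median of 0.27, and the sterol exporter pair Abcg5 (27.9 ± 4.28 to 57.2 ± 7.13 FPKM) and Abcg8 (21.7 ± 2.89 to 35.2 ± 2.90 FPKM) led them, while Nr1h3, itself 1 of the 10, was not called. HNF4A targets had 5 risen and 1 fallen of 16 (median 0.16), led by Cyp7a1, the rate-limiting enzyme of bile acid synthesis, from 11.8 ± 5.40 to 46.5 ± 14.9 FPKM. ERR and PGC-1 targets had 7 risen and 2 fallen of 13 (median 0.23), led by Mfn2, a mitochondrial fusion protein, from 21.1 ± 0.592 to 29.9 ± 1.81 FPKM, with Esrra itself as 1 of the 7.

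Glucocorticoid receptor targets had a median of 1.06, with 9 of 14 risen and none fallen, while Nr3c1 was not called. In vehicle mice 2 rose (median 0.65), beside 10.4% of all genes called, and in Libramed mice 10 rose (median 1.60), beside 12.4%. None fell in either. The interaction estimates had a median of 0.91, beside 0.005 for all genes, and were positive for 12 of the 14. None was called, beside 0% of all genes. Per1 rose from 2.98 ± 1.04 to 13.8 ± 3.82 FPKM and Fkbp5 from 5.25 ± 2.47 to 21.9 ± 5.61 FPKM. Thyroid hormone targets had 3 risen of 7 (median 0.33), led by Thrsp, a lipogenic protein, from 207 ± 100.5 to 2009 ± 924 FPKM, and RAR targets had 2 fallen of 5 (median -0.29), Dhrs3 (143 ± 14.0 to 95.6 ± 5.09 FPKM) and Tgm2 (35.2 ± 2.11 to 26.6 ± 2.64 FPKM). For Libramed against vehicle over both times, 0 genes of these lists were called. Some genes stand in more than 1 list, and each gene can answer to receptors outside its list.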

How the data were processed

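RNA-seq of 12 livers (4 groups of 3 mice) was analysed from the table of FPKM values per gene that the authors deposited. The submitters' notes name TopHat and Cuffnorm with mm10 (GRCm38), while the study's methods name another aligner and RPKM, so the step that made the values is not settled. The labels call the 3 libraries of a group biological replicates and give no litter or extraction batch. Of 24138 lines, 289 that repeat a symbol were dropped, which left 23849 symbols, of which 6783 were at 0 in all libraries. Values were tested as log2(FPKM + 1), so fold changes understate those of low genes, for 9806 symbols with a mean of at least 1 FPKM. limma 3.58.1 in R 4.3.3 (lmFit, eBayes with trend, two-sided, Benjamini-Hochberg over all symbols tested) gave 7 comparisons, 4 between pairs of groups with 6 mice each and 3 over all 12, with a call at an adjusted p under 0.05. Exact permutation tests (NumPy 2.4.6) rearranged labels within strata, with 400 arrangements. The scripts were tested on simulated data. No read counts were used, so absolute depth is unknown. Exon overlaps come from GENCODE and promoters from RefSeq on GRCm38.p6. Members and lists were chosen with earlier results of these data known. Every sample's value is given for the 13 members called in any comparison and the next by unadjusted p up to 20, and lists are represented by genes with the smallest p, some of which are not reported here.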

Additional observations from a re-analysis of the deposited data

Results flagged for a closer look

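The day-night change of 2 members differed between vehicle and Libramed mice by the exact permutation test of treatment labels within each time (400 arrangements, two-sided), at an unadjusted p and among 26 members. In limma the same 2 of 26 had an unadjusted interaction p under 0.05, near the 6.63% of all genes. For Esr1 the exact permutation p was 0.02, with a log2 fold change of 0.17 in vehicle mice and 0.86 in Libramed mice. For Ppard it was 0.035, with -0.78 in vehicle mice and 0.15 in Libramed mice, and vehicle ZT0 replicate 3 held 10.2 FPKM against at most 4.37 FPKM in any other mouse. Neither passed in limma over all genes, with adjusted p of 0.649 for Esr1 and 0.751 for Ppard.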

How the results depend on the processing

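The 13 members called between ZT12 and ZT0 over both treatments became 10 to 15 under the alternatives (10 with a minimum mean of 5 FPKM, which tests fewer members, and 15 with unadjusted p), and 11 to 14 when single libraries were left out. In vehicle mice 4 became 2 without the minimum, 1 with Cyber-T and 8 with unadjusted p, and 1 to 4 when single libraries were left out. In Libramed mice 8 became 5 without the minimum, 3 with Cyber-T and 14 with unadjusted p, and 2 to 8 when single libraries were left out. The cause was not tested, and leaving out a library changes both the number of mice and which mice remain. Libramed against vehicle gave 0 calls throughout except with unadjusted p, which gave 3 at ZT0, 3 at ZT12, 3 over both times and 2 for the interaction. With the replicate number as a block, 1 member was called in vehicle mice, 4 in Libramed mice and 13 over both. Same-numbered samples correlated at -0.279 to 0.341, with 4 of 18 pairs over 0.1, which gave no clear sign that the numbers pair the mice. Deviations from a mean of 3 mice are tied to each other, so this check cannot exclude pairing. The 48 member values followed across settings were those with an unadjusted p under 0.05 in the limma fits described here. They were thus chosen for lying away from 0, so that none changed sign says little. Other estimates, near 0, did change sign. For Libramed against vehicle at ZT0, 13 of 26 were positive, against 10 without vehicle ZT0 replicate 1 and 17 without vehicle ZT0 replicate 2. Depth relative to other libraries is known only as a ratio, and members under 1 FPKM were not resolved.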
